A study of Mus musculus with 10 samples.

Results

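Cathepsins are the main proteases of the lysosome, and 10 of their genes were followed here in the mouse hippocampus after status epilepticus (SE). The genes *Ctsa*, *Ctsb*, *Ctsc*, *Ctsd*, *Ctsf*, *Ctsh*, *Ctsk*, *Ctsl*, *Ctss* and *Ctsz* were chosen by symbol. All 10 were among the 15900 genes with a value, and all 10 passed the filter on low values that left 15851 genes to test. Of 13 other cathepsin symbols looked for, 1 (*Ctso*) had a value, and it was not called at 2 days after SE against pre-SE mice (log2 fold change −0.78).

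Cathepsins are made as inactive precursors that carry mannose 6-phosphate, travel to the lysosome and are cleaved to active enzymes at low pH. Most are cysteine proteases, whereas cathepsin D is an aspartic protease and cathepsin A is a serine carboxypeptidase. They break down proteins taken up by phagocytosis or delivered by autophagy, and several of them are abundant in microglia and macrophages, where cathepsin S also trims the invariant chain of MHC class II. Cystatins and stefins block the cysteine cathepsins in the extracellular space and in the cytosol, respectively.

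The study asked which genes change in the hippocampus early after SE and which of these changes are altered by levetiracetam (LEV), an anti-epileptic drug. Whole hippocampi of 10 ICR mice aged 9 to 10 weeks were analysed by cap analysis of gene expression (CAGE), with 2 mice in each of 5 groups. CAGE reads 1 tag from each captured capped 5′ end, so that a level does not grow with transcript length, and levels are given as CPM, the tags of a gene scaled to the library's total (counts per 10⁶ tags). Pre-SE mice received no pilocarpine (PILO). All mice of the other groups received methyl scopolamine and then PILO at 290 mg/kg, and their seizures were ended with diazepam, so that the effects of SE and of these drugs cannot be told apart. Mice of the SE 6 h and SE 2 days groups received no LEV. Mice of the SE + LEV 6 h and SE + LEV 2 days groups received oral LEV at 360 mg/kg, 1 dose and 5 doses before sampling, respectively.

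The depth estimated from the steps between CPM values was 10.54 × 10⁶ to 51.71 × 10⁶ tags a library (median 26.68 × 10⁶), and 3 tags were worth 0.058 to 0.285 CPM. Neuronal, astrocyte and oligodendrocyte markers were present in every library of this hippocampal tissue. In each library, 8 neuronal markers summed to between 3680 and 6888 CPM. A group of 4 libraries stood apart by markers of choroid plexus, the tissue that makes the cerebrospinal fluid. The 3 markers with values summed to between 857.5 and 3985 CPM in pre-SE mouse 2, SE 6 h mouse 2, SE + LEV 6 h mouse 1 and SE + LEV 2 days mouse 1. They summed to between 8.21 and 65.4 CPM in the other 6 libraries.

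The promoters of 3 of the genes called higher at 2 days against pre-SE mice are shown, those with a promoter sequence at hand. They were chosen by that result, and a shared regulation was not tested. Each run is the 250 bases before the RefSeq start, 5′ to 3′ on the gene's strand, placed on mm9 by exact match. Capitals mark the PU.1-type motif (GAGGAA, the core that the myeloid factor PU.1 binds) or the GC box (GGGCGG), on either strand.
Ctsz, chr2:174264541-174264790, minus strand: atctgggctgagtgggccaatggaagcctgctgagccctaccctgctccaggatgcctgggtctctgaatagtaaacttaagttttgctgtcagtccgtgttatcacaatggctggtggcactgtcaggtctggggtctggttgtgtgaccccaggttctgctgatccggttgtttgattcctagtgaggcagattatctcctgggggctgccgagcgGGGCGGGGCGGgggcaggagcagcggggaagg
Ctsc, chr7:95426345-95426594, plus strand: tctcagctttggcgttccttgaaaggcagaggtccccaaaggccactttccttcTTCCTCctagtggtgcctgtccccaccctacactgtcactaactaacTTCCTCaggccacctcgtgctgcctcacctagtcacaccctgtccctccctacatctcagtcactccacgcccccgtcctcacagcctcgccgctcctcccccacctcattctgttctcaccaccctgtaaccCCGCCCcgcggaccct
Ctss, chr3:95330458-95330707, plus strand: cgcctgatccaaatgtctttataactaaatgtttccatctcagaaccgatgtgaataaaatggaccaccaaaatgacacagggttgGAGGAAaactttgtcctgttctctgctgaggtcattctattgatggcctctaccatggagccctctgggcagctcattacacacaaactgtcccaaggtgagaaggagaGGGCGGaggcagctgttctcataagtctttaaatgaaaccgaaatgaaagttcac
RefSeq windows, which run from 250 bases before to 50 bases after a start, were at hand for 8 of the 10 genes (9 windows), and *Ctsb* and *Ctsh* had none. GAGGAA was found in 3 of the 9 windows (*Ctsc*, *Ctsk* and *Ctss*) and in 28.28% of all 32851 mouse windows. GGGCGG was found in 5 of the 9 (*Ctsc*, *Ctsd*, *Ctsf*, *Ctss* and *Ctsz*) and in 35.66% of all windows. In *Ctsz*, 2 GGGCGG motifs overlapped each other by 1 base.

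The E-box CACGTG, the core of the element bound by TFEB, the master regulator of lysosomal genes, was found in 4 of the 9 windows and in 7.15% of all windows. These were windows of *Ctsa*, *Ctsd*, *Ctsf* and *Ctsl*, of which none was called at 2 days against pre-SE mice. They are shown as stretches of 30 bases with the E-box in capitals.
Ctsa, chr2:164659257-164659286, plus strand: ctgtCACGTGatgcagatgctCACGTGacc
Ctsd, chr7:149573813-149573842, minus strand: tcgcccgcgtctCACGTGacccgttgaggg
Ctsf, chr19:4855074-4855103, plus strand: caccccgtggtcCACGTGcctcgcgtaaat
Ctsl, chr13:64472047-64472076, minus strand: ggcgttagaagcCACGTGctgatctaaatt
The window of *Ctsd* and 1 of the 2 windows of *Ctsa* each held 2 E-boxes. The start of this *Ctsa* window lies inside the annotated gene, which begins at 164658373. Its E-boxes begin at positions −12 and 5 from that start. The other *Ctsa* window held none. The AP-1 motif TGANTCA was in 0 of the 9 windows and in 7.81% of all windows, and TATAAA was in 1 of the 9 (*Ctss*) and in 13.62% of all windows. All motifs were searched on both strands. A match is a description of the letters and was not tested for binding.

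Before SE, the hippocampus held the cathepsin mRNAs at very unequal levels. *Ctsb* was highest at 411.7 ± 39.7 CPM (mean ± SD, n = 2 mice here and throughout), followed by *Ctsd* at 212.8 ± 42.4 and *Ctsl* at 95.4 ± 4.95 CPM. Lower levels were measured for *Ctsf* (60.1 ± 0.608 CPM), *Ctsa* (55.9 ± 2.86 CPM), *Ctss* (37.3 ± 8.43 CPM) and *Ctsz* (33.8 ± 1.98 CPM). *Ctsc* (11.2 ± 3.74 CPM), *Ctsh* (9.77 ± 6.01 CPM) and *Ctsk* (1.82 ± 1.97 CPM) were lowest. The mice of *Ctss* and *Ctsz* overlapped, as did those of *Ctsc* and *Ctsh*, so that these neighbours in the order did not differ beyond their spread. The other neighbours did not overlap.

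Together the 10 genes summed to 991.6 and 868 CPM in the 2 pre-SE mice and to 915.7 and 856.8 CPM in the SE 6 h mice. The sum was 1538 and 1944 CPM in the SE 2 days mice and 2003 and 1328 CPM in the SE + LEV 2 days mice. All 4 mice of 2 days were thus above all 6 others, of which the lowest was an SE + LEV 6 h mouse at 635.2 CPM. *Ctsb* and *Ctsd* made up 65.3% to 68.8% of the sum before SE and 60.9% to 61.6% in SE 2 days mice. *Ctsz*, *Ctsc*, *Ctsh* and *Ctss* made up 9.33% to 10.6% before SE and 22.7% to 23.0% in SE 2 days mice.

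**Figure D1:**
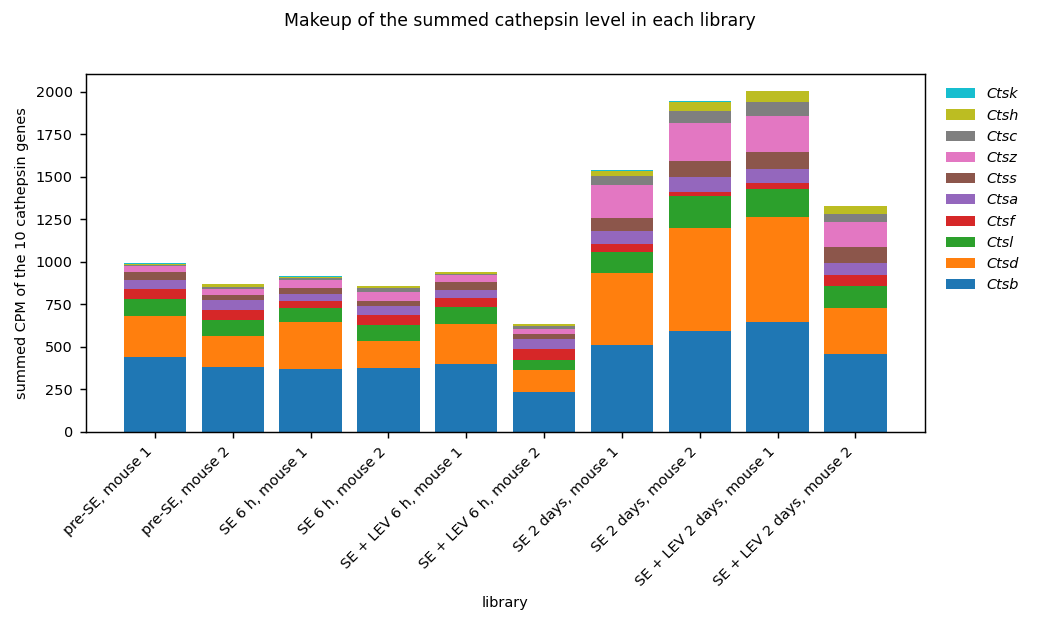
Summed CPM of the 10 cathepsin genes in each of the 10 libraries (bars, vertical axis in CPM), divided by gene (colours). The 4 libraries of 2 days reach 1328 to 2003 CPM and the other 6 stay at or under 991.6 CPM.

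At 6 h after SE, none of the 10 cathepsins was called. A gene is called where its p, adjusted after Benjamini-Hochberg over all 15851 genes in a two-sided limma model of log2(CPM + 0.1), is 0.05 or less. In this comparison, 2.76% of all genes were called higher and 0.202% lower, and 1 of 10 cathepsins (*Ctsz*) was higher at an unadjusted p under 0.05, against 9.18% of all genes. The median log2 fold change (logFC, a difference on this log2 scale) was −0.10 for the cathepsins and −0.13 for all genes. With median-of-ratios size factors the latter was −0.00451.

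*Ctsz*, which encodes the carboxypeptidase cathepsin X (also called Z), had 35.21 and 32.41 CPM before SE and 50.1 and 53.17 CPM at 6 h. The SE 6 h mice exceeded both pre-SE mice, a relation that held for 1 of 10 cathepsins and 18.6% of all genes. Its logFC was 0.61 (95% confidence interval 0.10 to 1.12), which did not pass the correction (limma adjusted p = 0.21). *Ctsa*, whose product also protects β-galactosidase and neuraminidase in the lysosome, had 53.87 and 57.92 CPM before SE and 37.17 and 48.92 CPM at 6 h. *Ctsb*, encoding the most abundant cysteine cathepsin, had 439.79 and 383.61 CPM before SE and 369.97 and 376.24 CPM at 6 h. In these, both mice of 6 h were below both pre-SE mice, as in 31.3% of all genes. Neither was called, with a logFC of −0.39 for *Ctsa* and −0.14 for *Ctsb* (limma adjusted p of 0.39 and 0.84). The other 7 genes overlapped between the groups, with a logFC from −0.34 (*Ctsh*) to 0.64 (*Ctsc*).

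At 2 days after SE, 4 of the 10 cathepsins rose above the pre-SE level, namely *Ctsz*, *Ctsc*, *Ctsh* and *Ctss*, whereas 5.07% of all genes were called higher. The folds were 2.29 to 6.07. None of the 10 was called lower (0.593% of all genes). In 8 of the 10, each SE 2 days mouse exceeded each pre-SE mouse, and this was so in 26.3% of all genes. The median logFC was 0.93 for the cathepsins and −0.03 for all genes.

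*Ctsz* had 190.12 and 222.48 CPM in the SE 2 days mice against 35.21 and 32.41 CPM before SE. The mice of 2 days were thus far above the pre-SE mice, at a logFC of 2.60 with a standard error of 0.23, a 6.07-fold difference (95% confidence interval 4.27 to 8.63, limma adjusted p = 0.00073). By this rise *Ctsz* passed from the seventh to the third highest cathepsin.

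*Ctsc* encodes the dipeptidyl peptidase that activates the serine proteases of immune cell granules. It had 8.52 and 13.81 CPM before SE and 57.07 and 68.73 CPM at 2 days. Its logFC was 2.52 ± 0.42 (estimate ± standard error, as below), with limma adjusted p = 0.0073 and no overlap between the groups. *Ctsh*, encoding an aminopeptidase, had 5.52 and 14.02 CPM before SE and 29.59 and 56.5 CPM at 2 days. The mice of both groups were spread widely but did not overlap, and the logFC was 2.2 ± 0.52 (limma adjusted p = 0.037).

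*Ctss*, encoding the protease of myeloid cells named above, had 43.25 and 31.33 CPM before SE and 76.23 and 93.47 CPM at 2 days. Both mice of 2 days were higher, and the logFC was 1.20 ± 0.29 (limma adjusted p = 0.038). Of these calls, that of *Ctsz* held in all 13 alternatives set for single genes in this comparison. *Ctsz* alone was called without pre-SE mouse 1 or without SE 2 days mouse 2. With the 4 libraries of high choroid plexus level left out, 3 genes (*Ctsc*, *Ctsh* and *Ctsz*) were called.

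The other cathepsins did not pass the correction at 2 days. *Ctsd*, which encodes the aspartic protease cathepsin D, had 242.79 and 182.82 CPM before SE and 426.11 and 604.19 CPM at 2 days. Its logFC was 1.27 (95% confidence interval 0.28 to 2.26, limma adjusted p = 0.14), and it was called in a fit of only these 2 groups (limma adjusted p = 0.035). Both mice were also higher for *Ctsl*, encoding an endopeptidase of broad range, at 120.71 and 188.14 CPM against 98.91 and 91.91. For *Ctsb* the SE 2 days mice had 509.77 and 592.73 CPM, and for *Ctsa* they had 79.33 and 88.03 CPM. The limma adjusted p of these was 0.26 (*Ctsl*, logFC 0.66), 0.48 (*Ctsb*, 0.42) and 0.18 (*Ctsa*, 0.58).

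*Ctsf* was the one gene with both mice of 2 days below both pre-SE mice, which held for 25.6% of all genes. It encodes a cysteine cathepsin with a long propeptide and had 60.56 and 59.7 CPM before SE and 48.5 and 28.04 CPM at 2 days. The logFC of −0.70 (95% confidence interval −1.48 to 0.07) was not called (limma adjusted p = 0.30). *Ctsk*, known from osteoclasts, was near the bottom of the range, with 3.21 and 0.43 CPM before SE and 0.47 and 1.29 CPM at 2 days, or 93, 22, 11 and 27 tags. Its 2 pre-SE mice thus differed more than the groups did, and the confidence interval of its logFC ran from −2.99 to 1.84.

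**Figure D2:**
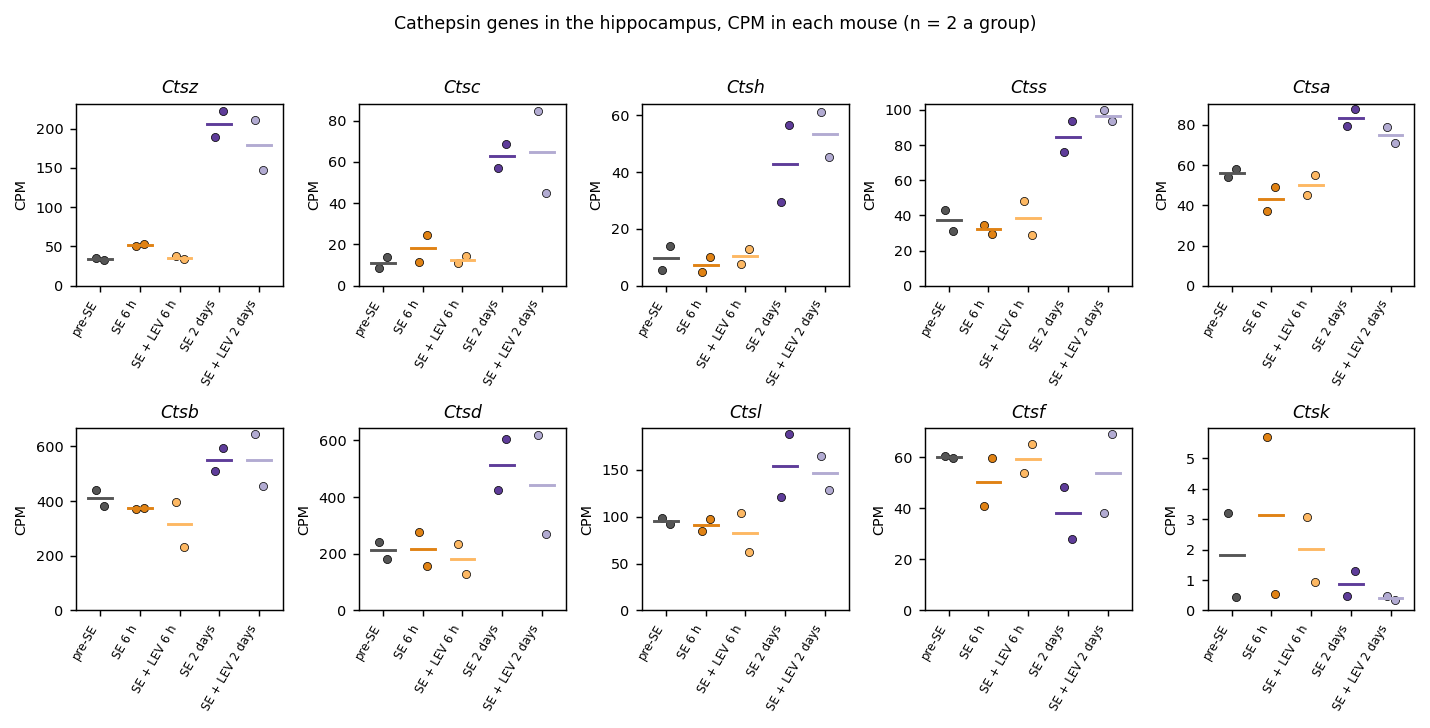
CPM of each cathepsin gene (vertical axes, each from 0) in the 2 mice of each group (points), with the group mean (line). *Ctsz*, *Ctsc*, *Ctsh* and *Ctss* stand higher in all 4 mice of 2 days than in the other 6, as do *Ctsa*, *Ctsb* and *Ctsl*. The share of all genes with this split of the mice was not counted. The *Ctsk* points of pre-SE and SE 6 h mice lie far apart.

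The later time was also compared with the earlier one. In SE 2 days mice against SE 6 h mice, 5 of the 10 cathepsins rose, against 3.14% of all genes called higher. They were the 4 named genes and *Ctsa*, which had 37.17 and 48.92 CPM at 6 h and 79.33 and 88.03 CPM at 2 days (logFC 0.97 ± 0.22, limma adjusted p = 0.041). The logFC was 2.55 for *Ctsh* (limma adjusted p = 0.026), 1.99 for *Ctsz* (0.0028), 1.88 for *Ctsc* (0.037) and 1.40 for *Ctss* (0.025). Both mice of 2 days were above both of 6 h in 8 of 10 cathepsins and 31.0% of all genes. The median logFC was 1.13 for the cathepsins and 0.09 for all genes. Without any single one of these 4 mice, only 1 or 2 of the 5 were called. *Ctsz* was called each time, with *Ctsc* beside it without SE 6 h mouse 2. With the 4 libraries of high choroid plexus level left out, 2 (*Ctsc* and *Ctsz*) were called.

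**Figure D3:**
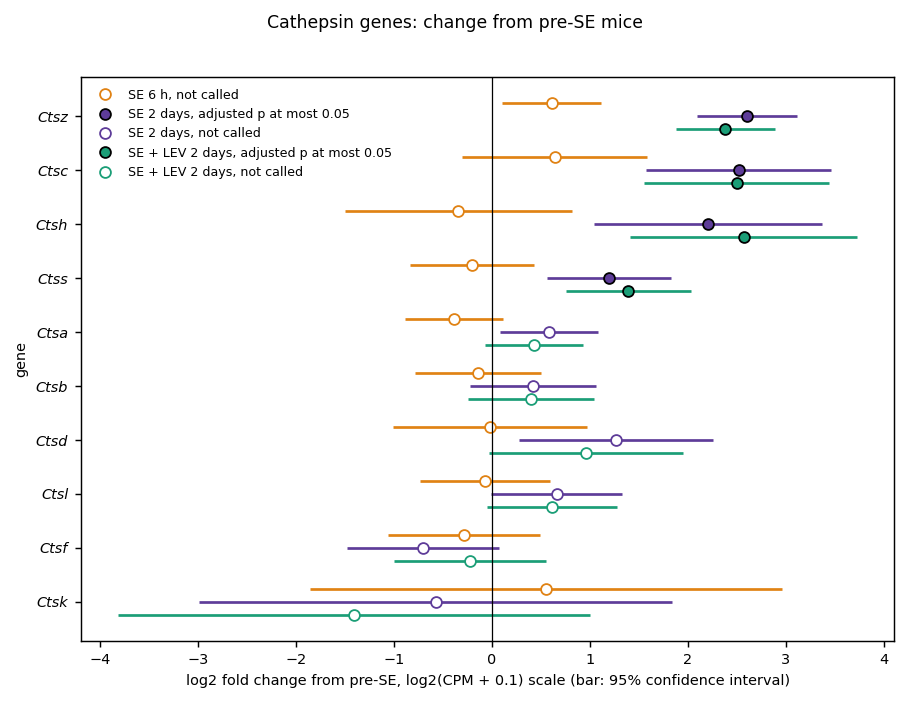
logFC of each cathepsin gene from pre-SE mice (horizontal axis, log2(CPM + 0.1) scale) with its 95% confidence interval, for SE 6 h, SE 2 days and SE + LEV 2 days mice, which share the pre-SE mice. Filled points are called genes, and these are *Ctsz*, *Ctsc*, *Ctsh* and *Ctss* in both groups of 2 days.

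LEV-treated and untreated SE mice were then compared at the same time. At 6 h, none of the 10 cathepsins was called in SE + LEV mice against SE mice, and over all genes 0% were called higher and 0.0126% lower. *Ctsz* had 37.25 and 34.25 CPM with LEV and 50.1 and 53.17 CPM without it. It was the 1 cathepsin with both treated mice below both untreated mice (13.4% of all genes), and 0 had both above (16.1%). Its logFC of −0.53 had a 95% confidence interval of −1.04 to −0.02, with an unadjusted p of 0.042 in limma and an adjusted p of 1. For the other 9 genes the logFC was between −0.43 (*Ctsc*) and 0.52 (*Ctsh*).

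At 2 days, none of the 10 was called with LEV, over all genes 0% were called in either direction, and 0 cathepsins had an unadjusted p under 0.05 in limma (1.30% of all genes higher, 1.37% lower). *Ctsz* had 211.12 and 147.78 CPM with LEV and 190.12 and 222.48 CPM without it, so that one treated mouse lay within the untreated range and one below it (logFC −0.22, 95% confidence interval −0.73 to 0.29). *Ctss* had 100.04 and 93.61 CPM with LEV, both above the untreated mice, a relation held by 15.2% of all genes (logFC 0.20, interval −0.44 to 0.83). *Ctsa* had 79.1 and 71.1 CPM, both below the untreated mice, as in 12.2% of all genes (logFC −0.16, interval −0.66 to 0.34).

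The intervals at 2 days leave room for differences of size in both directions. For *Ctsc*, with 84.47 and 45.1 CPM under LEV, the interval ran from −0.96 to 0.92. For *Ctsd*, with 618.18 and 271.12 CPM under LEV, it ran from −1.30 to 0.68. The 2 treated mice of *Ctsd* thus spanned the untreated ones. For *Ctsh* (61.34 and 45.34 CPM under LEV) it ran from −0.80 to 1.53. The estimates of *Ctsb* (−0.02), *Ctsl* (−0.05), *Ctsf* (0.48) and *Ctsk* (−0.83) were likewise not called. The LEV effect at 2 days did not pass a test of its difference from that at 6 h in any of the 10, nor in any gene (0% in both directions).

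**Figure D4:**
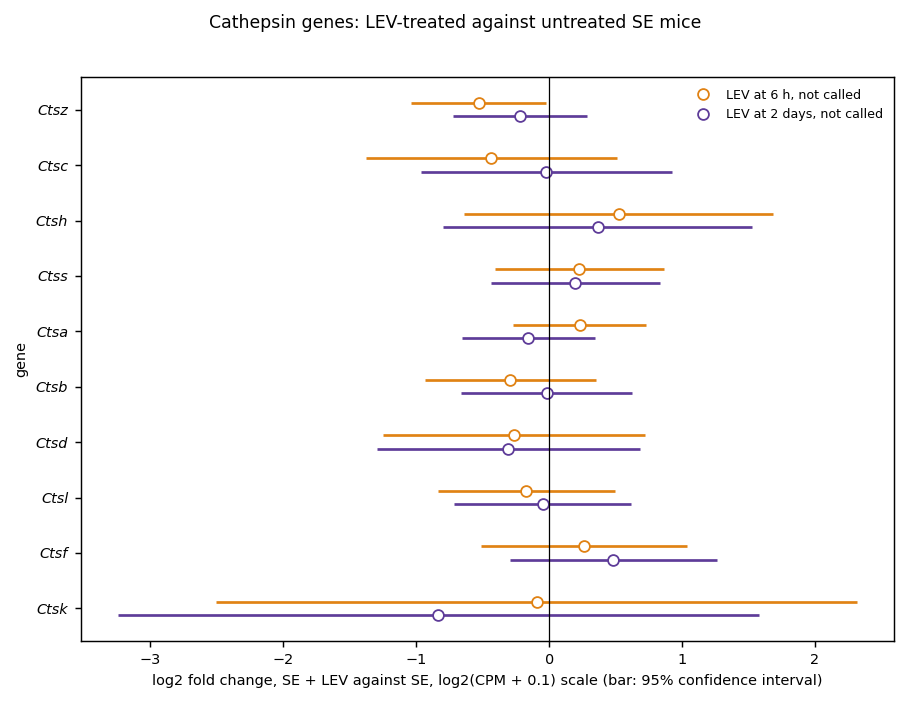
logFC of each cathepsin gene in SE + LEV against SE mice (horizontal axis, log2(CPM + 0.1) scale) at 6 h and 2 days, with 95% confidence intervals. All points are open (not called), and the interval of *Ctsz* at 6 h is the one that leaves out 0.

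Against pre-SE mice, SE + LEV 6 h mice had 0 cathepsins called (0.315% of all genes were called higher). SE + LEV 2 days mice had 4 called higher, as did SE 2 days mice, and 2.83% of all genes were called higher. *Ctsz* had a logFC of 2.38 (limma adjusted p = 0.0017), *Ctsc* of 2.5 (0.011), *Ctsh* of 2.57 (0.028) and *Ctss* of 1.39 (0.028). Each treated mouse exceeded each pre-SE mouse in 8 of the 10 and in 22.6% of all genes, with a median logFC of 0.78 for the cathepsins and 0.02 for all genes. Both comparisons of 2 days share the pre-SE mice. *Ctsz* alone was called in a fit of only the groups compared. With 1 mouse of these 2 groups left out, the logFC was 2.13 to 2.64 for *Ctsz* and 2.045 to 2.949 for *Ctsc*. It was 1.90 to 3.23 for *Ctsh* and 1.16 to 1.62 for *Ctss*. Calls other than that of *Ctsz* depended on the mouse left out. Leaving out the 4 libraries of high choroid plexus level kept 1 mouse in each of the 2 groups, so calls without them could not be judged.

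Against SE + LEV 6 h mice, 4 cathepsins rose in SE + LEV 2 days mice, with 2.06% of all genes called higher. These were *Ctsh* (logFC 2.39, limma adjusted p = 0.049), *Ctsz* (2.30, 0.0047), *Ctsc* (2.29, 0.022) and *Ctss* (1.37, 0.040). The call of *Ctsh* was lost in 10 of 13 alternatives and that of *Ctss* in 7 of 13. Without any single mouse of the 2 groups, 1 or 2 of them were called, *Ctsz* each time and *Ctsc* also without SE + LEV 2 days mouse 2. Leaving out the 4 libraries of high choroid plexus level kept 1 mouse in each of these 2 groups, so calls without them could not be judged.

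Cathepsin activity is held in check by inhibitors, and of 16 inhibitor symbols 11 had a value. At 6 h after SE, 2 of the 11 rose against pre-SE mice (2.76% of all genes were called higher). *Ctla2a*, which encodes an inhibitor of cathepsin L-like enzymes, had 9.93 and 5.47 CPM before SE and 108.92 and 270.65 CPM at 6 h (logFC 4.52, limma adjusted p = 0.0014). Its near copy *Ctla2b* had 0.97 and 0.87 CPM before SE and 10.91 and 17.06 CPM at 6 h (logFC 3.75, adjusted p = 0.0023). Tags of these similar genes may have been split between them, so the values of each are uncertain. The cathepsins that the inhibitors act on, such as *Ctsl*, were not called at that time.

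At 2 days, 6 of the 11 listed inhibitors were called higher and 0 lower against pre-SE mice, and the median logFC of the list was 2.0. Over all genes, 5.07% were called higher and 0.593% lower. The list includes serpin genes, and whether each product inhibits any of the cathepsins followed here was not tested. *Cst7*, encoding cystatin F, which acts on cathepsin C and is found in immune cells, had 0.24 and 0.19 CPM before SE and 7.5 and 8.31 CPM at 2 days (logFC 4.67, limma adjusted p = 0.0046). *Ctla2b* (3.37), *Ctla2a* (3.04) and *Serpina3g* (2.40) followed. Also called were *Serpina3n* (2.27) and *Cstb* (2.00), encoding the cytosolic inhibitor stefin B, which rose from 73.98 and 86.65 to 255.41 and 401.87 CPM. *Cst3*, encoding the secreted inhibitor cystatin C, had by far the most tags of the list, with 4783.53 and 6391.8 CPM before SE and 4432.75 and 4801.97 CPM at 2 days. The sum over the list was therefore 4992 and 6614 CPM before SE and 5178 and 5652 CPM at 2 days. Under LEV, 0 of the 11 were called against untreated mice at either time, and at 2 days *Cst7* had 11.8 and 2.09 CPM.

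**Figure D5:**
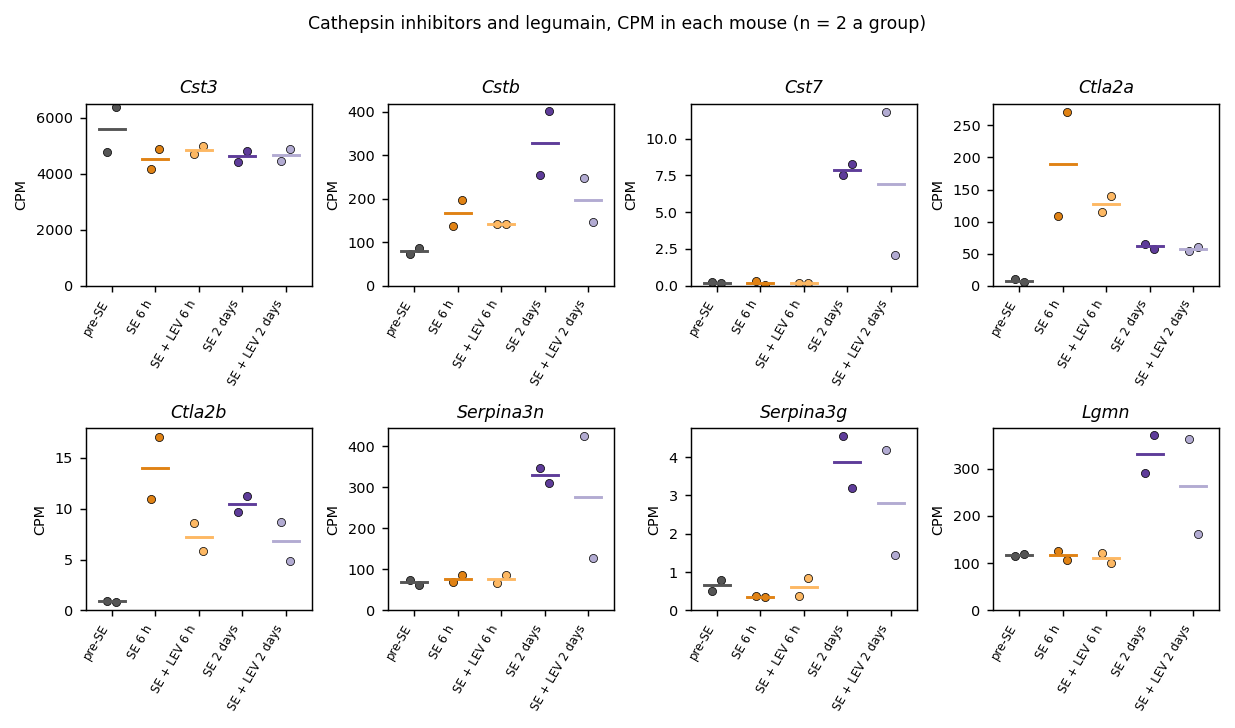
CPM of 7 cathepsin inhibitor genes and of *Lgmn* (vertical axes, each from 0) in the 2 mice of each group (points), with the group mean (line). *Ctla2a* is highest at 6 h, *Cst7*, *Serpina3g* and *Lgmn* stand higher at 2 days than at 6 h in both untreated mice, and the *Cst3* groups lie at similar heights.

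Among 10 genes of enzyme delivery and processing, *Furin* rose at 6 h (logFC 1.73, limma adjusted p = 0.034). At 2 days against pre-SE mice, 2 rose. *Lgmn* encodes legumain, which cleaves cathepsin precursors into their chains, and it had 115.84 and 119.1 CPM before SE and 289.93 and 371.59 CPM at 2 days (logFC 1.48, adjusted p = 0.030). *Grn*, encoding the lysosomal protein progranulin, rose from 58.63 and 54.61 to 233.11 and 229.4 CPM (logFC 2.03, adjusted p = 0.0013). The median logFC of the list was 0.11. The receptors that sort the enzymes, *M6pr*, *Igf2r* and *Sort1*, were not called. *Sort1* had 354.74 and 368.8 CPM before SE and 245.62 and 148.21 CPM at 2 days (logFC −0.92, limma adjusted p = 0.072). Both mice of 2 days were thus lower for *Sort1*, as in 25.6% of all genes.

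The other lysosomal genes were mostly not called. Of 32 gene rows of other lysosomal hydrolases, those that rose included *Gla* at 6 h (logFC 3.11) and *Gusb* at 2 days (logFC 2.01), and the median logFC at 2 days was 0.17. Of 16 genes of the lysosomal membrane and its acidification, *Cd63* rose at 2 days (logFC 2.29), with a median of 0.04. Against pre-SE mice at 2 days, the cathepsin median of 0.93 thus stood beside medians near that of all genes in these lists. Against SE 6 h mice, the median was 0.51 for the hydrolases, 0.21 for the membrane genes, 1.13 for the cathepsins and 0.09 for all genes. Both mice of 2 days were above both of 6 h in 18 of the 32 hydrolase rows, 8 of the 16 membrane genes and 31.0% of all genes. Of the TFEB family, *Mitf* alone had a value, with a logFC of −0.03 at 2 days. Of 7 genes of MHC class II antigen processing, *Ifi30*, encoding a thiol reductase of the lysosome, rose at 2 days (logFC 3.0, limma adjusted p = 0.0030), and the list median was 1.93.

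Pan-myeloid markers, like the cathepsins, were called higher mainly at 2 days, but part of them had shifted by 6 h, unlike most cathepsins. Of 11 pan-myeloid markers, 9 rose at 2 days after SE against pre-SE mice (median logFC 2.88) and 1 rose at 6 h. The median logFC at 6 h was 0.63 for these markers and −0.10 for the cathepsins. In both mice of 6 h, 6 markers were higher (18.6% of all genes) and 1 was lower (31.3%). Over all genes, 5.07% were called higher at 2 days and 2.76% at 6 h. The markers summed to 250 and 252.9 CPM before SE, to 289.3 and 346 CPM at 6 h and to 1221 and 1497 CPM at 2 days. With LEV at 2 days the sum was 1467 and 1040 CPM. In none of the 10 libraries was a pan-myeloid marker with a value at 0. In whole tissue, more cells of a type and more RNA per cell cannot be told apart.

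The 10 homeostatic microglia markers were summed likewise. They summed to 154.2 and 148.8 CPM before SE, to 53.5 and 57.9 CPM at 6 h and to 256.7 and 346 CPM at 2 days. At 6 h, 3 of the 10 fell (0.202% of all genes were called lower), while no cathepsin was called. The median logFC of this list at 6 h was −0.98, with 8 of the 10 lower in both mice (31.3% of all genes). At 2 days against pre-SE mice the members went both ways, with 2 called higher (*Fcrls* and *Olfml3*), 5 higher and 1 lower in both mice, and a median logFC of 0.60. The lower one was *P2ry12*, at 41.45 and 26.88 CPM before SE and 18.06 and 16.91 CPM at 2 days (not called). Over all genes in this comparison, 5.07% were called higher, and 26.3% were higher and 25.6% lower in both mice. The 2 monocyte markers with a value, *Plac8* and *Ms4a4c*, summed to 0.1 and 0.12 CPM before SE and 7.17 and 4.15 CPM at 2 days, and both were called. Astrocyte markers summed to 2437 and 2297 CPM before SE and to 3512 and 4936 CPM at 2 days. Of the 6, *Gfap* and *Aqp4* rose, 3 were higher and 3 lower in both mice. *Gfap* had 245.62 and 230.22 CPM before SE and 2281.84 and 3642.11 CPM at 2 days. *Slc1a2* (logFC −0.93), *Gja1* (−0.98) and *Slc1a3* (−0.73) were the lower ones and were not called. The 8 neuronal markers, of which 0 were called, summed to 6888 and 5556 CPM before SE and to 4435 and 3969 CPM at 2 days. Oligodendrocyte markers summed to 4466 and 5029 CPM before SE and to 1639 and 2456 CPM at 2 days. Endothelial markers summed to 57.4 and 62.9 CPM and to 112.2 and 97.3 CPM, and neutrophil markers to 0.59 and 1.62 CPM and to 1.18 and 4.87 CPM. In each of these lists 0 were called at 2 days. All 5 oligodendrocyte markers were lower in both mice, and all 5 endothelial markers and 1 of 3 neutrophil markers were higher in both. The part of these cell types in the cathepsin levels was not tested.

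Set against the pan-myeloid sum of the same library, the cathepsins fell into different ranges. *Ctsz* had 0.128 to 0.141 CPM for each CPM of pan-myeloid markers before SE and 0.149 to 0.156 at 2 days. *Ctsc* had 0.0341 to 0.0546 before SE and 0.0459 to 0.0467 at 2 days, and *Ctsh* had 0.0221 to 0.0554 and 0.0242 to 0.0377. For these the ratio at 2 days lay near or within the pre-SE range, unlike for the genes that follow. The ratio was lower at 2 days for *Ctss* (0.124 to 0.173 before SE, 0.0624 in both mice at 2 days) and for *Ctsd* (0.723 to 0.971 and 0.349 to 0.404). It was also lower for *Ctsb*, at 1.52 to 1.76 before SE and 0.396 to 0.418 at 2 days. The mean pan-myeloid sum in SE 2 days mice was 5.4 times that of pre-SE mice, so a gene that rose less has a lower ratio. The ratios thus largely restate the folds given above. They are descriptions and were not tested.

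Over the 10 libraries, the log2(CPM + 0.1) values of *Ctsc* and *Ctsz* had a Pearson correlation of 0.959, those of *Ctsb* and *Ctsl* of 0.948 and those of *Ctsc* and *Ctsh* of 0.936. *Ctsf* correlated negatively with each of the other 9, most strongly with *Ctsd* (−0.803). These points share the 5 groups and are given without a test. Among 14211 other genes with a mean of at least 1 CPM, the likest to *Ctsz* were *Lat2* and *Rac2* (both 0.988), and the likest to *Ctsc* were *Tspo* (0.992) and *Edem1* (0.988). *Ctss* was nearest to *Arhgdib* (0.978) and *Xlr* (0.977), and *Ctsh* to *Nek2* (0.977) and *Rnase4* (0.976). *Ctsd* was nearest to *Nckap1l* (0.984) and *Il33* (0.978), *Ctsb* to *Ptgr1* (0.993) and *Plin3* (0.974), and *Ctsl* to *Hyal1* (0.962) and *Ptgr1* (0.958). *Ctsa* was nearest to *Tcf19* (0.978) and *P2rx4* (0.977), *Ctsf* to *Ctxn2* (0.977) and *Fam116b* (0.976), and *Ctsk* to *Ppme1* (0.965) and *Rnf121* (0.955).

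On mm9, *Ctsk* and *Ctss* lie on chromosome 3 on the plus strand, from 95303208 to 95313284 and from 95330708 to 95360325. *Ctsz* (chromosome 2, 174252994 to 174264540, minus strand) overlaps *Th1l* on the other strand, and *Ctsc* (chromosome 7, 95426595 to 95459398, plus strand) holds the long noncoding RNA *Gm17710* on the other strand. *Ctsh* lies on chromosome 9 from 89948990 to 89970927. *Ctsa* overlaps *Neurl2* and *Pltp*, and *Ctsb* overlaps *Fdft1*, all on the other strand, whereas *Ctsd* overlaps *6330512M04Rik* on its own strand and *Ctss* holds the pseudogene *Hmgb1-ps5*. Whether strand was used when tags were given to genes is not stated in the sources used here, so tags of overlaps on the other strand may be shared. Strand would not separate *Ctsd* and *Ctss* from the genes named on their own strand. The overlap of *Ctsz* with *Th1l*, from 174252994 to 174253003, lies at the 3′ end of *Ctsz*, away from the 5′ end that CAGE reads.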

How the data were processed

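CAGE libraries of whole hippocampi from 10 mice (5 groups of 2) were sequenced, and the authors mapped the tags to mm9 (BWA 0.7.17, then HISAT2 2.0.5), clustered them, used edgeR 3.22.5 and deposited CPM values per gene and mouse, with 2 decimals. The step from tag clusters to genes is not given in the sources used here. Separate mice are replicates. The estimated depth rests on the steps between low CPM values, each a multiple of 1 tag. It limits low genes such as *Ctsk*, and counting error is only part of the spread.

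Values were taken as log2(CPM + 0.1) for the 15851 genes that reached 0.1 CPM in 2 or more libraries. For 9 comparisons, limma 3.58.1 was run in R 4.3.3. All 10 libraries entered 1 model of 5 group means with a mean-variance trend, which left 5 residual degrees of freedom. Adjustment was by Benjamini-Hochberg over all genes. The smallest two-sided exact permutation p of 2 mice against 2 is 0.333, so calls rest on the spread shared across genes. The fit was tested on simulated data. Fold changes of low genes are understated by the pseudocount. Cathepsins and gene lists were chosen with earlier results of these data known. All 10 cathepsins are named, with up to 4 called genes a list by size of logFC, or the one nearest the list median where none was called, and the 2 likest genes of each member. *Serpina3n*, *Cstb*, *Cst3*, *M6pr*, *Igf2r*, *Sort1* and the cell type markers were named after their values were seen. An item that falls under this rule is not reported here. Replicate numbers do not pair mice. Sequences are from RefSeq (GRCm38.p6). Figures were made with Python 3.11.15 and matplotlib 3.10.9.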

Additional observations from a re-analysis of the deposited data

Results flagged for a closer look

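The comparisons of 2 days with 6 h given above can also be read as a difference between the times in the change from pre-SE mice, since the pre-SE mean cancels. That difference was called in 5 cathepsins without LEV and in 4 with LEV. With the values already given, the logFC without LEV at 2 days minus that at 6 h was 1.99 for *Ctsz*, 1.88 for *Ctsc*, 2.55 for *Ctsh*, 1.40 for *Ctss* and 0.97 for *Ctsa* (limma, adjusted p of at most 0.05, higher in 2 of 2 mice). With LEV it was 2.30 for *Ctsz*, 2.29 for *Ctsc*, 2.39 for *Ctsh* and 1.37 for *Ctss*. The groups of 2 mice are too small for a search for single outlying mice.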

How the results depend on the processing

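The settings varied were the pseudocount (0.01, 0.5 and 1), the filter (none, or 1 CPM in 2 or more libraries), the scaling (median of ratios), the block on replicate numbers, the mean-variance trend (none), the groups in the fit (only those compared) and the mice (each left out). Tests on tag counts had also been planned and were not run, because the recovery of whole tags did not pass the check of the units for every library. Of 132 counts of cathepsins called, 111 stayed within 1.5 times. These include the comparisons with no cathepsin called under the main settings, where a count that stays at 0 is taken as unchanged. Without the trend, 2 were called in SE 2 days against pre-SE mice, 3 against SE 6 h mice and 2 in SE + LEV 2 days against SE + LEV 6 h mice, and with rescaling the last 2 counts were 3 and 2. A fit of only the groups compared gave 1 in SE + LEV 2 days against pre-SE mice. Leaving out 1 mouse gave 1 to 3 in each comparison of 2 days with pre-SE mice and 1 to 2 in each comparison of 2 days with 6 h. In these fits the lone mouse is assumed to vary like the other groups. Leaving out the 4 libraries of high choroid plexus level, chosen after seeing the data, gave 2 for SE 2 days against SE 6 h and 0 for SE + LEV 2 days against pre-SE and against SE + LEV 6 h. It leaves 1 residual degree of freedom and 1 mouse in every group but SE 2 days, which limits what these counts can show. The cause of these changes was not tested. Depth limits *Ctsk* most, with 8 to 178 tags a library.

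Same-numbered mice correlated at −0.44 to 0.34 in their deviations, and the replicate block kept every count of cathepsins called (0, 4, 5, 0, 0, 0, 4, 4 and 0). With numbers crossed in 1 group where the correlation was under −0.1, the counts were 0 (SE + LEV 2 days against SE 2 days) and 4 (against pre-SE). Of 930 logFC values of single cathepsins under the alternatives, 833 kept direction and call, 62 lost the call, 1 gained it and 34 changed sign. Only genes called under the main settings could lose a call, and most of the 930 values were of genes not called. The 930 values leave out SE + LEV 6 h against pre-SE mice and the difference between the LEV effects. They also leave out the fits without the libraries of high choroid plexus level. None of the 34 was of a called gene. With rescaling, *Ctsd* (0.11) and *Ctsl* (0.059) changed sign at 6 h against pre-SE. The rest of the 34 came from leaving out 1 mouse. For SE 6 h against pre-SE the ranges were *Ctsd* −0.43 to 0.39, *Ctsh* −1.01 to 0.32, *Ctsk* −1.03 to 2.13, *Ctsl* −0.18 to 0.0393 and *Ctss* −0.43 to 0.0302. For SE 2 days against pre-SE the range was *Ctsk* −1.90 to 0.75. For SE 2 days against SE 6 h the range was *Ctsk* −2.71 to 0.45. For SE + LEV 6 h against SE 6 h the ranges were *Ctsb* −0.67 to 0.0892, *Ctsc* −0.98 to 0.11, *Ctsd* −0.71 to 0.18, *Ctsf* −0.0149 to 0.53, *Ctsh* −0.0006367 to 1.05, *Ctsk* −1.67 to 1.49, *Ctsl* −0.54 to 0.19 and *Ctss* −0.14 to 0.59. For SE + LEV 2 days against SE 2 days the ranges were *Ctsb* −0.27 to 0.23, *Ctsc* −0.47 to 0.43, *Ctsd* −0.90 to 0.28, *Ctsh* −0.10 to 0.83, *Ctsl* −0.37 to 0.27 and *Ctsz* −0.48 to 0.0377. For SE + LEV 2 days against pre-SE the range was *Ctsf* −0.65 to 0.20. For SE + LEV 2 days against SE + LEV 6 h the range was *Ctsf* −0.62 to 0.23.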
